A study of Homo sapiens with 8 samples.

Results

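The expression of 39 genes of DNA double-strand break repair and of the Fanconi anaemia pathway was followed in Rh41 cells. Rh41 is an established human line derived from an alveolar rhabdomyosarcoma, which is a tumour of soft tissue that resembles developing skeletal muscle. The 39 genes were taken by symbol, and each was found among the 60234 rows of the deposited table. MDC1 was listed under 8 identifiers, of which the one with the highest mean was kept. Rh41 carries the PAX3-FOXO1 fusion, which is therefore common to both groups. One group of 4 libraries is labelled control, with no further description of its treatment, and the other group of 4 is labelled siG9a. G9a is a histone H3K9 methyltransferase encoded by EHMT2. The sample labels name the reagent siG9a and the series title shG9a, and no time after knockdown is given. The labels speak of biological replicates but do not say how the cultures were separated, so the p-values measure the spread between these samples of a single cell line.

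A double-strand break is rejoined by end joining, which ligates the ends with little regard to sequence, or by homologous recombination, which copies the sister chromatid. The kinases ATM and ATR relay the damage signal, the MRE11 complex and its partners trim the ends, and BRCA2, PALB2 and BRCA1 act together in the recombination that follows. Crosslinks between DNA strands are handled by the Fanconi pathway, in which a multi-subunit core complex attaches ubiquitin to the FANCI-FANCD2 pair. Many recombination and Fanconi genes are transcribed mainly in S phase and G2.

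Values are CPM, the counts of a gene scaled to the total of reads assigned to genes in its library. The libraries were QuantSeq 3′ libraries, in which a transcript is read near its poly(A) end, so CPM was not divided by gene length. Library totals ran from 1458825 to 1938665 reads, and 1 read was worth 0.516 to 0.685 CPM. EHMT2 measured 57.6, 68.1, 87.3 and 88.3 CPM in control replicates 1 to 4 and 19.6, 35.1, 33.1 and 58.5 CPM in siG9a. It was lower in each of the 4 pairs of libraries with the same replicate number, although siG9a replicate 4 lay above control replicate 1. Libraries with the same number deviated together from their group means, though only weakly in replicates 2 and 4. Therefore 2 limma fits are given: one with the group alone, called unpaired, and one with the replicate number as a block, called paired. Libraries with different numbers were not compared, so the pairing rests on the numbers in the titles. The replicate 3 libraries stood apart from the others in both groups. The summed CPM of 12 markers of skeletal muscle and of PAX3-FOXO1 tumours was 355 in control replicate 3 and 340 in siG9a replicate 3, against 1933 to 2157 in the other control libraries and 1124 to 1637 in the other siG9a libraries. This sum was lower in siG9a in 4 of 4 pairs. Of these markers 5 were called lower in siG9a in the paired fit and 0 in the unpaired fit. MYOD1 and DES were found in every library, while TMEM8C (MYMK) did not exceed 0.69 CPM. The neural markers, almost all of them NEFM and NEFL, summed to 9614 and 8929 CPM in the replicate 3 libraries and to between 184 and 2950 CPM in the others. Fibroblast markers summed to 118 to 407 CPM in control and 52.0 to 320 CPM in siG9a, nearly all of it collagen genes, while LUM, DCN and THY1 did not exceed 1.21 CPM. Epithelial markers summed to 10.3 to 75.6 CPM in control and 23.5 to 44.0 CPM in siG9a, with EPCAM at 0.69 CPM or less, and blood and endothelial markers summed to 2.74 CPM or less. The part of these markers in the repair gene values was not tested. In such bulk samples fewer cells of a type and less RNA per cell cannot be told apart.

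Few of the 39 repair genes were called different between siG9a and control, and those that passed the paired test were higher. All 39 had a mean of at least 1 CPM over the 8 libraries and were tested among 15092 genes. In the unpaired limma fit, 0 of the 39 had an adjusted p under 0.05, where 0% of all genes were called. An unadjusted p under 0.05 was found for 2 of them, where 12.5% of all genes had one. Unpaired edgeR on the recovered reads also called 0 of them, and unpaired DESeq2 called 1, FANCL, where it called 1.93% of all genes. In the paired fit 2 of the 39 (5.13%) were called, FANCL and FANCG, both higher in siG9a, and paired edgeR, which called 11.3% of all genes, also called 2. Paired DESeq2, which called 6.42% of all genes, called FANCL alone. Over all genes tested the paired fit called 11.4%, with 4.86% higher and 6.52% lower. The share of repair genes called was below that background, but it rested on 2 genes, and the difference between the shares was not tested. The median log2 change of the 39 was 0.11, against 0.01 over all genes tested, with 25 values above 0 and 14 below. For 3 of the 39 genes (7.69%) the 4 libraries of one group all lay above those of the other, where 7.32% of all genes did the same. FANCL and CHEK2 lay higher in siG9a (3.88% of all genes did) and RAD51B lower (3.45%). The summed CPM of the 39 genes was 2188 ± 312 in control and 2140 ± 156 in siG9a (SD, n = 4 each). That difference was smaller than the spread between libraries (exact permutation test, two-sided p = 0.83). All permutation tests here exchanged the 8 libraries without regard to replicate number.

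**Figure D1:**
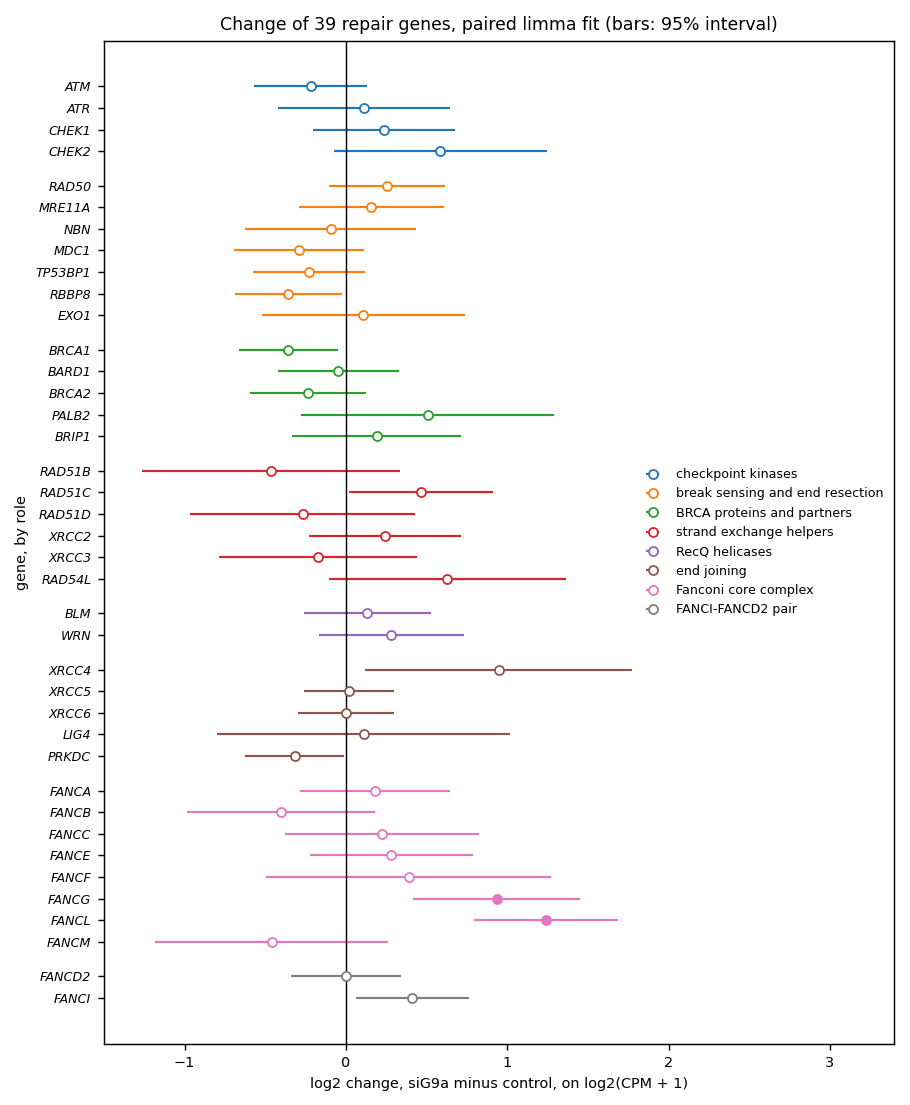
Log2 change (siG9a minus control, on log2(CPM + 1)) of the 39 repair genes in the paired limma fit, grouped and coloured by role. Points are estimates, bars 95% intervals, and filled points have an adjusted p under 0.05: only FANCL, at 1.24, and FANCG, at 0.93, are filled, and most other intervals cross 0.

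The Fanconi core complex held both called genes. FANCL is its ubiquitin ligase subunit. FANCL (ENSG00000115392) measured 21.3, 17.6, 20.9 and 15.6 CPM in control replicates 1 to 4, from 31, 29, 34 and 30 reads. In siG9a it measured 71.2, 43.0, 45.7 and 30.4 CPM, from 138, 71, 80 and 53 reads. Every siG9a library was above every control library, and the ratio within a pair ran from 1.95 in replicate 4 to 3.35 in replicate 1. The 95% Wilson interval, which covers counting error only, reached from 23.2 to 39.8 CPM in the lowest siG9a library and from 15.0 to 30.2 CPM in the highest control library. Group means were 18.8 ± 2.72 and 47.6 ± 17.1 CPM (SD, n = 4 each), a 2.52-fold difference. In the paired limma fit the log2 change was 1.24 ± 0.22 (SE; adjusted p = 0.000473), and in the unpaired limma fit it was 1.24 ± 0.28 (adjusted p = 0.122). By an exact two-sided permutation test of the 8 libraries p was 0.0286, the smallest that 4 against 4 allows. Without the replicate 3 libraries the change was 1.29, with a limma adjusted p of 0.00489 paired and 0.0394 unpaired, and 2.74% of all genes were called in the unpaired fit. Without control replicate 3 alone, the unpaired limma fit called 1.99% of all genes and FANCL among them (adjusted p = 0.0471).

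The 3′ end of FANCL lies tail to tail with that of VRK2, a protein kinase gene on the opposite strand, and in GENCODE release 29 VRK2 overlaps the last 500 bases of FANCL. Whether the counting used strand is not given in the sources used here. VRK2 was looked at for this reason, after the FANCL values had been seen. VRK2 was at 19.2, 26.1, 45.5 and 38.9 CPM in control and at 7.22, 23.6, 26.3 and 20.6 CPM in siG9a. It was thus lower in siG9a in 4 of 4 pairs, opposite to FANCL, with a log2 change of −0.77 ± 0.24 (SE) and a limma adjusted p of 0.0369 paired and 0.469 unpaired. FANCL reads were 28.6% to 52.5% of the summed reads of both genes in control and 59.6% to 90.8% in siG9a. The sum of both genes had a mean of 51.3 ± 11.7 CPM in control and of 67.0 ± 11.7 CPM in siG9a (SD, n = 4 each). The part that the overlap played in the FANCL values was not tested. In all, 12 of the 39 genes had another gene over their last 500 bases: ATM, CHEK1, RAD50, TP53BP1, RAD51D, XRCC3, RAD54L, WRN, FANCA, FANCL, FANCD2 and FANCI.

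**Figure D2:**
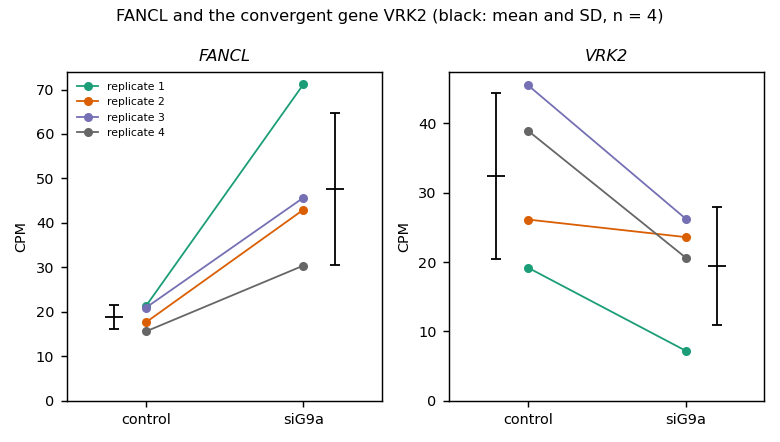
CPM of FANCL and of the convergent gene VRK2 in the 8 libraries; lines join libraries with the same replicate number, and black marks give the mean and SD of 4 libraries. FANCL is higher in siG9a in all 4 pairs, from a mean of 18.8 to 47.6 CPM, and VRK2 is lower in all 4 pairs.

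FANCG, a core complex scaffold subunit also known as XRCC9, was the other gene called. FANCG (ENSG00000221829) measured 15.8, 6.68, 12.3 and 20.8 CPM in control replicates 1 to 4 and 28.9, 16.9, 27.4 and 31.5 CPM in siG9a, from 11 to 40 reads in control and 28 to 56 in siG9a. It was higher in siG9a in 4 of 4 pairs, by ratios of 1.52 to 2.54, but siG9a replicate 2 lay below control replicate 4, so the groups overlapped. Means were 13.9 ± 5.93 and 26.2 ± 6.40 CPM (SD, n = 4 each). Its change in log2 was 0.93 ± 0.25 (SE; limma adjusted p = 0.0162) in the paired fit and 0.93 ± 0.36 (0.315) in the unpaired one. The paired call was lost without replicate 2 (limma adjusted p = 0.102), without replicate 3 (0.0791) and in paired DESeq2 (0.0661).

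The sequences before the starts of these genes are shown because they are the 2 members that passed the paired test. They are from the RefSeq promoter table on GRCh38.p14, minus strand, from 250 to 76 bases before the annotated start, with a match to a core motif of E2F factors in capitals. E2F factors drive many S phase genes.

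FANCL, chr2:58241401-58241575: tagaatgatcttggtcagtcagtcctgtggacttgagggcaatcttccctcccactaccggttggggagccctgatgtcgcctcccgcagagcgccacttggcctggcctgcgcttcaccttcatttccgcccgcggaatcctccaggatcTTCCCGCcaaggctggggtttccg

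FANCG, chr9:35080018-35080192: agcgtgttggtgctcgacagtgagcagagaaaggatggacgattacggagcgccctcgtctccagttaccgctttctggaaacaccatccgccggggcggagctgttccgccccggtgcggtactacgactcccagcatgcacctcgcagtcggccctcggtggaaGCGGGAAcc

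Motifs of 4 factors were searched on both strands, chosen after these 2 sequences had been read. For E2F these were the heptamer TTCCCGC, the heptamer TTCGCGC, the heptamer TTGCCGC and the heptamer TTGGCGC. FANCL holds TTCCCGC, and FANCG holds its reverse complement. A match was present in the same 175-base window of 6 of the 34 repair genes found in the table (FANCA, FANCC, FANCG, FANCL, MDC1 and RAD54L), in 7 of their 49 promoters (14.3%), and in 7.60% of all 35116 promoters. The FANCL and FANCG windows, read beforehand, are among these 7 promoters. That share of 14.3% is thus not independent of the choice of motifs. For NF-Y the letters CCAAT were present in 16 of the 49 promoters (32.7%), against 22.9% of all promoters, and in neither FANCL nor FANCG. For ETS factors the letters ACTTCCG were present in 7 of the 49 (14.3%), against 2.39% of all, again in neither gene. The palindromic motif of NRF1 was in 0 of the 49 and in 0.402% of all. These matches are letters in a window and not measured sites. The FANCL window overlaps an exon of an antisense gene, AC007250.1, in GENCODE release 29.

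The other 6 core complex genes did not pass the test. FANCA, FANCC, FANCE and FANCF had log2 changes between 0.18 and 0.39, and FANCB and FANCM had −0.40 and −0.46, with paired limma adjusted p-values from 0.406 to 0.695. FANCM, the DNA translocase that anchors the complex at the crosslink, measured 5.48 to 15.1 CPM in control and 5.16 to 7.42 CPM in siG9a. The summed CPM of the 8 core genes was 111.0, 117.9, 143.9 and 143.3 in control and 193.9, 167.1, 199.2 and 138.2 in siG9a, so it was higher in 3 of 4 pairs. Means were 129.0 ± 17.1 and 174.6 ± 28.1 CPM (SD, n = 4 each, exact permutation test, two-sided p = 0.0857), and FANCL and FANCG are part of that sum. With means of 18.8 and 47.6 CPM for FANCL and 13.9 and 26.2 CPM for FANCG, these 2 genes made up most of the difference.

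Neither of the 2 substrates of the core complex passed the test. FANCI lay at 70.6, 66.8, 119.3 and 101.3 CPM in control and 108.3, 119.2, 149.0 and 94.1 CPM in siG9a. It was higher in 3 of 4 pairs and lower in replicate 4. The FANCI difference in log2 was 0.41 ± 0.17 (SE; limma adjusted p = 0.118 paired and 0.526 unpaired). Without replicate 4 the paired fit called it (log2 change 0.58, limma adjusted p = 0.0324). FANCD2 measured 82.9 to 112.7 CPM in control and 80.3 to 103.2 CPM in siG9a, with means of 94.1 ± 12.9 and 94.0 ± 10.3 CPM (SD, n = 4 each). Its paired 95% interval reached from −0.34 to 0.34 in log2. The difference between the 2 genes was not tested. POLG on the other strand overlaps the last 500 bases of FANCI, and a FANCD2 pseudogene, FANCD2P2, could share reads with FANCD2.

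**Figure D3:**
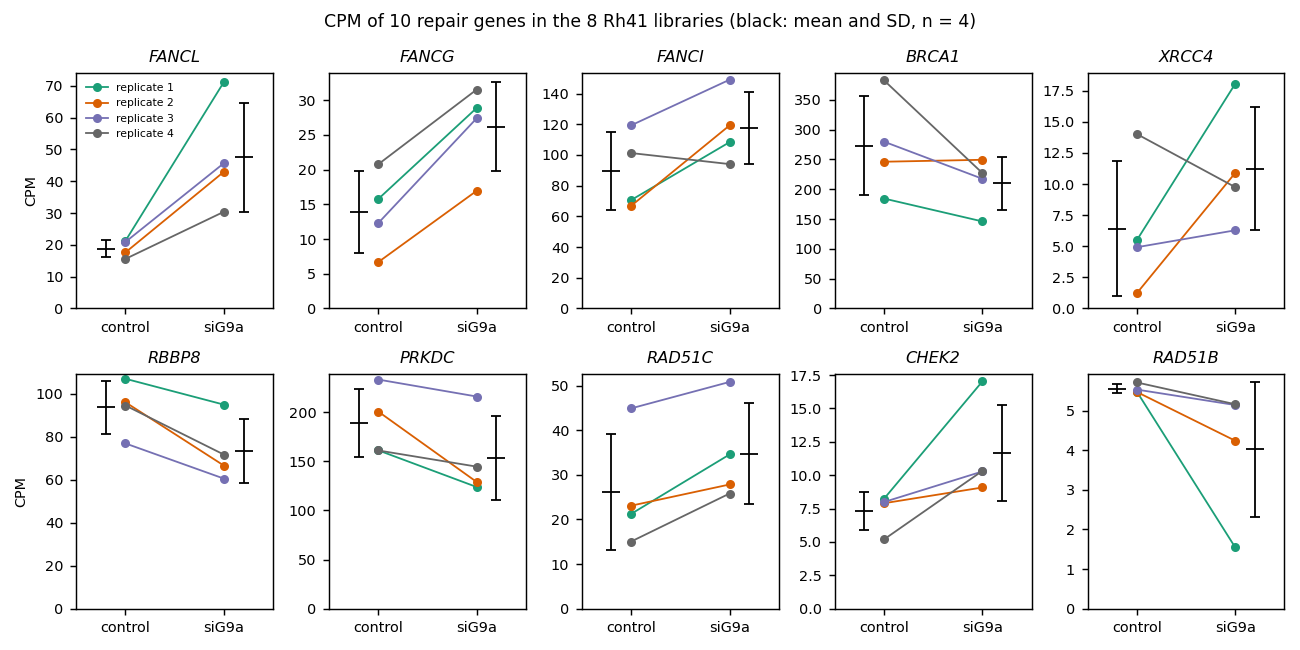
CPM of the 10 repair genes chosen by rule, in the 8 libraries; lines join libraries with the same replicate number, and black marks give the mean and SD of 4 libraries. FANCL, FANCG, RAD51C and CHEK2 are higher in siG9a in all 4 pairs, and RBBP8, PRKDC and RAD51B lower in all 4, but only FANCL and FANCG pass the paired test.

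None of the 5 genes of the BRCA proteins and their partners was called. BRCA1, a ubiquitin ligase and recombination scaffold, measured 184.4, 246.1, 279.8 and 382.7 CPM in control replicates 1 to 4 and 146.0, 249.4, 217.5 and 227.1 CPM in siG9a. It was lower in 3 of 4 pairs. Control replicates 3 and 4 were above every siG9a library, and control replicates 1 and 2 lay within the siG9a range. Its log2 change was −0.36 ± 0.15 (SE), with a limma adjusted p of 0.124 paired and 0.611 unpaired. BRCA2, a tumour suppressor of homologous recombination, had means of 94.7 ± 25.0 and 78.4 ± 6.43 CPM (SD, n = 4 each; limma adjusted p = 0.433 paired). BARD1, the obligate partner of BRCA1, had a log2 change of −0.05 and a paired 95% interval from −0.42 to 0.33. PALB2, which bridges BRCA1 and BRCA2, and the helicase BRIP1 had log2 changes of 0.51 and 0.19, with paired limma adjusted p-values of 0.437 and 0.699. The summed CPM of the 5 genes was lower in siG9a in 4 of 4 pairs, at 457 ± 100.4 against 380 ± 35.3 CPM (SD, n = 4 each, exact permutation test, two-sided p = 0.200). That test does not use the pairs.

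Among RAD51B, RAD51C, RAD51D, XRCC2 and XRCC3, which assist homologous recombination, and the translocase RAD54L, 0 of 6 genes were called. RAD51C lay at 21.3, 23.1, 44.9 and 15.1 CPM in control and at 34.6, 27.8, 50.8 and 25.8 CPM in siG9a. Both replicate 3 values were the highest of their group, and RAD51C was higher in siG9a in 4 of 4 pairs, with a log2 change of 0.46 ± 0.22 (SE) and a limma adjusted p of 0.178 paired and 0.632 unpaired. RAD51B measured 5.48, 5.47, 5.53 and 5.71 CPM in control and 1.55, 4.24, 5.14 and 5.16 CPM in siG9a. All 4 siG9a values were below all 4 control values, yet these rested on 8 to 11 reads in control and 3 to 9 in siG9a, and siG9a replicate 1 was at the floor of 3 reads. The RAD51B log2 change was −0.47 ± 0.39 (SE), with a limma adjusted p of 0.494 paired, and the exact permutation test gave a two-sided p of 0.0286. That permutation p follows from the lack of overlap alone. XRCC3 reached 47.4 CPM in control replicate 3 and stayed between 10.9 and 13.0 CPM in the rest of the control group, and in siG9a it was also highest in replicate 3, at 26.8 CPM. XRCC2 and RAD54L had log2 changes of 0.24 and 0.63 and RAD51D and XRCC3 of −0.27 and −0.17, with paired limma adjusted p-values from 0.280 to 0.775.

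None of the 4 checkpoint kinases was called. CHEK2, the effector kinase of ATM, measured 8.23, 7.90, 7.99 and 5.19 CPM in control and 17.02, 9.08, 10.3 and 10.3 CPM in siG9a. The groups did not overlap, with 10 to 13 reads in control and 15 to 33 in siG9a (exact permutation test, two-sided p = 0.0286). Every gene without overlap between the groups gets that permutation p, so it adds nothing to the lack of overlap. Its log2 change was 0.59 ± 0.32 (SE), with a limma adjusted p of 0.259 paired and 0.508 unpaired. CHEK2 has 4 pseudogenes under its own name in GENCODE release 29, so its reads are uncertain where the counting could split them. In all, 5 of the 39 genes have such pseudogenes: CHEK2, MRE11A, RBBP8, XRCC6 and FANCD2. CHEK1, the effector of ATR, was higher in siG9a in 4 of 4 pairs, at 25.6 ± 3.55 and 30.4 ± 4.58 CPM (SD, n = 4 each; limma adjusted p = 0.538 paired). ATM was lower in 4 of 4 pairs and was lowest in both replicate 3 libraries, at 43.7 and 36.0 CPM, against a range of 64.5 to 102.3 CPM over the remaining 6 libraries. Its log2 change was −0.22 and that of ATR 0.11, with paired limma adjusted p-values of 0.453 and 0.837. Over all 39 genes, 9 had a difference of the same sign in each of the 4 pairs, 5 higher and 4 lower, and 30.2% of all genes tested did so, 14.9% higher and 15.3% lower.

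Of the 7 genes of break sensing and end resection, 0 were called, and each had a paired 95% interval within a 2-fold change in either direction. Of all 15092 genes tested 7739 had such an interval. RBBP8 encodes CtIP, which starts resection with the MRE11 complex. It measured 106.9, 96.0, 76.9 and 94.5 CPM in control and 94.9, 66.6, 60.5 and 71.7 CPM in siG9a, lower in 4 of 4 pairs, with a log2 change of −0.36 ± 0.16 (SE) and a limma adjusted p of 0.163 paired and 0.533 unpaired. The 3 subunits of the MRE11 complex, RAD50, MRE11A and NBN, had log2 changes of 0.25, 0.16 and −0.09. TP53BP1, which shields ends from resection, and MDC1, which holds repair proteins at marked chromatin, went opposite ways in control replicate 3. There TP53BP1 was at 51.04 CPM, against 126.4 to 194.2 CPM in the rest of the control group, and MDC1 at 92.2 CPM, against 35.0 to 50.4 CPM. TUBGCP4, which overlaps the last 500 bases of TP53BP1 on the other strand, was high in the same library, at 64.6 CPM against 14.4 to 30.6 CPM. In siG9a replicate 3 TP53BP1 was likewise lowest of its group, at 56.5 CPM, and TUBGCP4 highest, at 50.2 CPM. The part of this overlap in the TP53BP1 values was not tested. The nuclease EXO1 was at 7.29 to 14.0 CPM in control and 7.87 to 13.7 CPM in siG9a.

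None of the 5 end joining genes was called. XRCC5 and XRCC6 encode the Ku heterodimer that binds the ends. Their means were 312 ± 46.1 and 317 ± 57.6 CPM for XRCC5 and 183.8 ± 35.6 and 183.9 ± 36.7 CPM for XRCC6, in control and siG9a (SD, n = 4 each). The paired 95% intervals of their log2 changes were −0.26 to 0.30 and −0.30 to 0.30. PRKDC, the kinase recruited by Ku, measured 161.1, 200.5, 233.1 and 161.0 CPM in control and 123.8, 128.9, 215.8 and 144.5 CPM in siG9a. It was lower in 4 of 4 pairs and highest in replicate 3 of each group, with a log2 change of −0.32 ± 0.15 (SE) and a limma adjusted p of 0.175 paired and 0.616 unpaired. XRCC4, the partner of the ligase, was counted with 8, 2, 8 and 27 reads in control and 35, 18, 11 and 17 reads in siG9a, that is 1.22 to 14.0 CPM and 6.28 to 18.1 CPM. It was higher in 3 of 4 pairs and lower in replicate 4, with a log2 change of 0.95 ± 0.40 (SE) and a limma adjusted p of 0.133 paired and 0.508 unpaired. LIG4, the ligase itself, was at 0 to 15 reads per library, which limits what could be detected. The paired 95% interval of LIG4 ran from −0.80 to 1.02. The RecQ helicases BLM and WRN, which unwind recombination intermediates, had log2 changes of 0.13 and 0.28 and were higher in 3 of 4 pairs each (limma adjusted p = 0.728 and 0.455 paired).

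Across the 39 genes, 29 had a paired 95% interval that lay wholly within a 2-fold change in either direction. Of all 15092 genes tested 7739 did, and of the 11608 within the range of mean CPM of the 39 genes 7121 did. The differences between these shares were not tested. Of the other 10 repair genes, FANCL and FANCG passed the test. The remaining 8 were CHEK2, PALB2, RAD51B, RAD54L, XRCC4, LIG4, FANCF and FANCM, each with a mean below 10 CPM. Without a correction for the number of genes, 8 of the 39 (20.5%) had a paired p under 0.05, 5 higher and 3 lower. Of all 15092 genes tested 25.5% did, 1827 higher and 2027 lower. The 8 repair genes were FANCL, FANCG, FANCI, XRCC4 and RAD51C among the higher, and BRCA1, RBBP8 and PRKDC among the lower.

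Libraries that share a replicate number deviated alike over all genes, weakly so in replicates 2 and 4. The repair genes deviated to a similar degree, though more in replicate 2. Over the 39 genes, the deviations from the group means of the control and siG9a libraries with the same number had a correlation across genes of 0.48, 0.32, 0.60 and 0.12 for replicates 1 to 4, and over all 15092 genes it was 0.50, 0.10, 0.67 and 0.13, as a description of genes that share their libraries. In replicate 3, 31 of the 39 genes (79.5%) differed from the mean of the other 3 libraries in the same direction in both groups, 21 higher and 10 lower, as did 74.5% of all genes tested. The shift was larger than 0.5 in log2 in both groups, with the same sign, for 7 of the 39 (17.9%) and for 32.6% of all genes. Of these XRCC3 (1.86 in control and 1.03 in siG9a), RAD51C (1.16 and 0.78), MDC1 (1.15 and 0.53) and FANCA (0.85 and 1.01) were higher in replicate 3. TP53BP1 (−1.55 and −1.05), FANCB (−1.22 and −0.68) and ATM (−0.90 and −0.97) were lower there. FANCL differed by only 0.20 and 0.01 and FANCG by −0.08 and 0.13. The part that the muscle and neural markers, which also differ in replicate 3, play in these shifts was not tested.

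**Figure D4:**
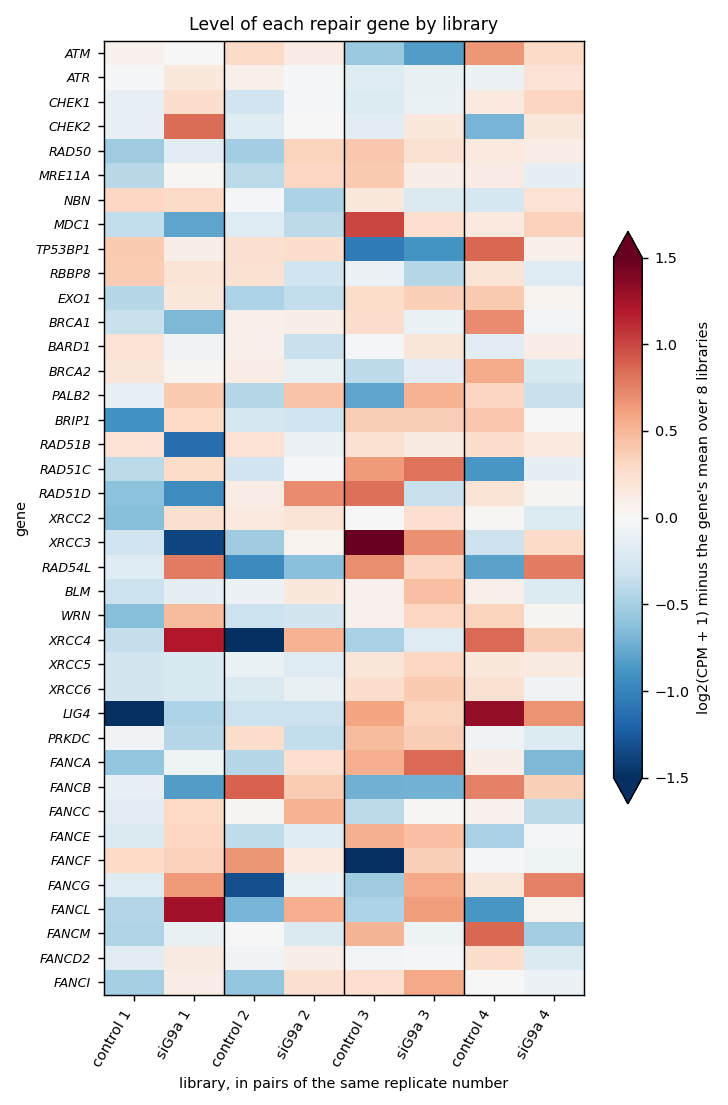
Level of each of the 39 repair genes in each library, as log2(CPM + 1) minus the gene's mean over the 8 libraries, with libraries of the same replicate number side by side. Both replicate 3 columns shift the same way for XRCC3, RAD51C, TP53BP1 and ATM, while FANCL and FANCG are higher in the siG9a column of each pair.

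A further 77 genes of the same pathways, chosen as a list with earlier results of these data known, gave 76 tested genes. In the paired fit 6 of the 76 (7.89%) were called, 4 higher and 2 lower, against 11.4% of all genes, and in the unpaired fit 0 were called, with 8 of 76 at an unadjusted p under 0.05, where 12.5% of all genes had one. Higher were SHFM1 (DSS1, a small BRCA2 partner), from 173.2 ± 14.7 to 260.3 ± 25.5 CPM, and MUS81 (a junction nuclease), from 14.1 ± 5.02 to 25.9 ± 3.57 CPM (SD, n = 4 each). RPA3 (a subunit of the single-strand binding complex) and RMI2 (a subunit of the BLM complex) had log2 changes of 0.64 and 0.85. Lower were PARP1 (a sensor of DNA breaks), from 889 ± 123.7 to 627 ± 206 CPM, and LIG3 (a ligase of alternative end joining), from 78.5 ± 26.4 to 50.5 ± 8.52 CPM (SD, n = 4 each). Their limma adjusted p-values ran from 0.00802 to 0.0390 paired and from 0.219 to 0.408 unpaired. The groups did not overlap for 4 of the 76 (5.26%), where 7.32% of all genes showed this: SHFM1, MUS81, LIG3 and the checkpoint clamp loader RAD17, which was not called. In the unadjusted paired test 14 of the 76 were higher and 5 lower, in all 25.0%, close to the 25.5% of all genes. Of all 15092 genes 1827 were higher and 2027 lower in that test, and the split of the 76 was not tested against these. The call count fell to 1 without replicate 2 and to 2 without replicate 1.

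Since many members are expressed with the cell cycle, 59 S phase and mitosis genes were read in the same way. Their summed CPM was 9748 ± 465 in control and 10021 ± 621 in siG9a (SD, n = 4 each, exact permutation test, two-sided p = 0.543). TOP2A, with a mean of 3265 CPM over all libraries, was the largest part of that sum. The groups did not overlap for 8 of the 59 genes (13.6%), where 7.32% of all genes showed this. The paired fit called 11 of the 59 (18.6%), 8 higher and 3 lower, where it called 11.4% of all genes, 4.86% higher and 6.52% lower. The unpaired fit called 0, with 9 of 59 at an unadjusted p under 0.05, against 12.5% of all genes. The 8 called genes with the smallest paired p were BIRC5, FEN1, TK1, PRIM1, SLBP, MCM4, PLK1 and AURKB. BIRC5 (−0.97), TK1 (−0.84) and MCM4 (−0.50) were lower, while FEN1 (0.94), PRIM1 (1.31), SLBP (0.72), PLK1 (0.53) and AURKB (0.55) were higher, in log2. The paired call count was 3 without replicate 1, 5 without replicate 3 and 6 without replicate 2. The genes called thus went both ways in S phase and in mitosis, and the part of the cell cycle in the repair gene values was not tested.

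In position, 19 of the 39 repair genes (48.7%) had in GENCODE release 29 a protein-coding neighbour on the other strand whose start lay within 1000 bases of their own, against 13.0% of all 19969 protein-coding genes. These neighbours were examined after the members' values were known. Of 20 such neighbours 14 were tested, with 1 called higher and 2 called lower in the paired fit, where 11.4% of all genes were called, 0 called in the unpaired fit, and 6 of 14 with a change of the same sign as the repair gene. The start of MCM4, a subunit of the replicative helicase, lies 2 bases from that of PRKDC, and MCM4 went from a control mean of 492 ± 183 CPM to a siG9a mean of 349.8 ± 136 CPM (SD, n = 4 each; log2 change −0.50, limma adjusted p = 0.0214 paired and 0.564 unpaired). It was lower in 4 of 4 pairs, as was PRKDC. MAP1A beside TP53BP1 was lower (log2 change −1.11, limma adjusted p = 0.000380 paired) and ZFYVE21 beside XRCC3 was higher (0.79, 0.00932 paired), while TP53BP1 and XRCC3 themselves had −0.23 and −0.17. HSCB, whose start lies 391 bases from that of CHEK2, measured 7.54 to 9.22 CPM in control and 9.68 to 17.02 CPM in siG9a without overlap, like CHEK2, with a log2 change of 0.50 and a limma adjusted p of 0.332 paired. MOSPD2 beside FANCB also showed no overlap, at 1.82 to 2.74 CPM in control and 4.00 to 5.74 CPM in siG9a. These values rested on 3 to 4 reads in control, near the floor of 3 reads, and on 7 to 11 in siG9a. The MOSPD2 log2 change was 0.85 (limma adjusted p = 0.181 paired), while FANCB itself had −0.40. Groups did not overlap for 7.32% of all genes tested. HSCB and MOSPD2 were named after their values were seen.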

How the data were processed

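Poly(A)-primed QuantSeq libraries of total RNA were sequenced as single-end reads, per the labels' protocols. The deposited table holds CPM to 2 decimals, scaled by the authors to the reads assigned to genes in each library. The submitters' processing notes name FastQC 0.11.8, Trim Galore, STAR 2.5.0a, HTSeq 0.8.0, edgeR 3.28 and the builds GRCh38 and hg19, with no role. The strand setting is not given in the sources used here. In each library 100% of values above 0 were whole multiples of 1 read within 0.0051 CPM, so reads were recovered, as whole numbers.

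Groups were compared on log2(CPM + 1) with limma 3.58.1 (R 4.3.3; eBayes with trend, two-sided). The 15092 genes whose mean CPM reached 1 were tested, with Benjamini-Hochberg adjustment and a threshold of 0.05. The pseudocount makes fold changes of low genes too small. The replicate numbers in the titles were taken as pairing because deviations from the group means correlated above 0.1 across genes in every pair (0.50, 0.104, 0.67 and 0.13). Libraries with different numbers were not compared in this way, so these values do not show that the libraries were made in pairs. Alternatives were pseudocounts of 0.1 and 5, other filters, median-ratio scaling, edgeR 4.0.16 and DESeq2 1.42.0 on recovered reads, and left-out libraries. The fits were tested on simulated data in which libraries of the same number shared their mean levels, apart from genes given a known change. Pairing was thus built in, so the simulation cannot show whether these libraries are pairs.

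Members and lists were chosen with earlier results of these data known. Values in every library are given for members called in either fit, the 8 with the smallest paired p, and those without overlap between groups. For the other lists, at most 8 called genes are named. Symbols with several identifiers were read at the highest mean.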

Additional observations from a re-analysis of the deposited data

Results flagged for a closer look

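For each repair gene and group, Dixon's ratio at the 95% level was used to find a library far from the other 3. Of 78 groups, 4 had such a library, where chance gives about 3.9. XRCC3 was high in control replicate 3, at 47.4 CPM (others 10.9 to 13.0). CHEK2 was low in control replicate 4, at 5.19 CPM (others 7.90 to 8.23), and high in siG9a replicate 1, at 17.02 CPM (others 9.08 to 10.3). XRCC2 was low in siG9a replicate 4, at 23.5 CPM (others 31.5 to 32.5).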

How the results depend on the processing

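The replicate block was the choice that moved the counts of calls most. Without it, 0 of 15092 genes were called, with 0 repair genes, 0 other pathway genes and 0 cell cycle genes. With it the counts were 1717, 2, 6 and 11 in the same order. With the block and a pseudocount of 0.1 they were 1363, 2, 4 and 10, with a pseudocount of 5 they were 1710, 2, 6 and 11, with no filter 840, 2, 1 and 5, with a mean of at least 5 CPM 1653, 2, 7 and 11, and with median-ratio scaling 1694, 2, 6 and 12. Paired edgeR called 1711, 2, 6 and 11, and paired DESeq2 969, 1, 2 and 6. Leaving out one pair from the paired fit gave 951, 668, 1078 and 1393 genes for replicates 1 to 4, 1 to 3 repair genes, 1 to 4 other pathway genes and 3 to 7 cell cycle genes.

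Without the block, DESeq2 called 291 genes, 1 repair gene and 3 cell cycle genes, and the fit with no filter called 18 genes. Without both replicate 3 libraries the unpaired fit called 413 genes, 1 repair gene and 1 cell cycle gene. Leaving out single libraries gave 0 to 300 genes, 0 to 1 repair genes, 0 other pathway genes and 0 to 1 cell cycle genes, and the highest counts came without control replicate 3. FANCL was called in 12 of 12 paired fits and 3 of 17 unpaired ones (DESeq2, without control replicate 3, and without both replicate 3 libraries), and FANCG in 9 of 12 and 0 of 17. None of the 10 repair genes given by library changed direction in any of these fits that tested it. The causes were not tested. Genes below 10 CPM, 9 of the 39, rested on at most 35 reads per library, which limits what could be detected.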
